A study of Mus musculus with 6 samples.

Results

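Ccr2, Cxcr3 and Cxcr4, which encode the chemokine receptors CCR2, CXCR3 and CXCR4, were followed in T cells of normal and ischemic mouse kidney. They were grouped here under the name inflammatory chemokine receptors. The 3 genes were taken by symbol from the 32285 features of the count tables, where each has 1 row, and 20 other chemokine receptor genes served for comparison. The 6 single-cell libraries came from wild-type C57BL/6J male mice aged 7 to 8 weeks. These were either normal animals (control) or animals whose 2 renal pedicles were both clamped for 30 min and then released (IR). In the IR animals serum creatinine was measured at 24 h to check the injury. Kidney leukocytes were sorted as live CD45+ αβ TCR+ cells into CD4+, CD8+ and double negative (DN, CD4- CD8-) T cells. Each condition and subset gave 1 library, and how many mice went into a library is not given in the sources used here. Because the controls had no sham operation, the effect of surgery and the effect of ischemia cannot be told apart.

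Chemokine receptors are G protein-coupled receptors of the cell surface that steer leukocytes along gradients of small secreted proteins. CCR2 binds CCL2 and related ligands made in inflamed tissue and is best known from inflammatory monocytes, but effector and memory T cells carry it too. CXCR3 binds the interferon-induced ligands CXCL9 and CXCL10 and marks effector T cells, in which the T-box factor T-bet drives its gene. CXCR4 binds CXCL12, also called SDF-1, which retains leukocytes in bone marrow and other tissues, and its gene is known to respond to hypoxia and to glucocorticoids. All 3 receptors signal through inhibitory G proteins, and RGS proteins shorten that signal.

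In these libraries Ccr2 and Cxcr3 were lower in IR than in control cells of every subset, and Cxcr4 was higher in every subset. Ccr2 was 2.16-fold lower in CD4, 2.11-fold lower in CD8 and 2.48-fold lower in DN cells. Cxcr3 was 2.72-fold, 4.75-fold and 2.99-fold lower in the same order. Cxcr4 was 5.10-fold, 3.48-fold and 4.40-fold higher. In cells without a UMI of the resting state genes Ccr7, Klf2, Il7r or S1pr1, Ccr2 was 1.63-fold and 1.62-fold lower in CD4 and CD8, under the 2-fold limit for a call, and Cxcr3 in CD8 was 2.58-fold lower. That choice left out a larger part of the IR than of the control cells. Among subsets, Ccr2 was highest in DN and lowest in CD8 cells in both conditions, whereas Cxcr3 and Cxcr4 differed less than 2-fold between any pair of subsets within a condition with the scaling used. With 1 library per group no difference has a replicate check, no test was run, and intervals cover counting error only.

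The genes lie on different chromosomes (GRCm38). Ccr2 is a protein-coding gene on the plus strand at chr9:124101950-124113557. Cxcr3 is on the minus strand at chrX:101731535-101734269, and Cxcr4 on the minus strand at chr1:128588199-128592293. No other annotated gene overlaps any of them on either strand. Reads of unannotated antisense transcripts were not examined. Whether reads were shared with similar receptor genes elsewhere was not tested.

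Promoter sequence was examined because Ccr2 and Cxcr3 moved together and Cxcr4 moved the other way. The 250 bases before each RefSeq start (GRCm38.p6) were searched on both strands for the T-box half-site TCACAC and for the hypoxia response cores, ACGTG with the first base A and GCGTG with the first base G. The stretches below are those upstream of both the RefSeq and the GENCODE M21 start, 5′ to 3′ on the strand of the gene, with matches in capitals, for Cxcr3 at chrX:101734270-101734397 and for Cxcr4 at chr1:128592300-128592549, both on the minus strand. The GENCODE start of Ccr2 lies 233 bases before its RefSeq start, so its short remainder is not shown.
Cxcr3: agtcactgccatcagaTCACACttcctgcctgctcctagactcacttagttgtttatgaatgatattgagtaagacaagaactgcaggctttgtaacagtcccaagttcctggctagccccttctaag
Cxcr4: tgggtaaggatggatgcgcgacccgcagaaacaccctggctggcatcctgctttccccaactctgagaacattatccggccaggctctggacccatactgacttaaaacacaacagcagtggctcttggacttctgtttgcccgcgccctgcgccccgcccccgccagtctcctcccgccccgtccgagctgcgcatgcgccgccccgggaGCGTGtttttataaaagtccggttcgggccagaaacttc
The Cxcr3 window held the T-box half-site starting at position -234 from the RefSeq start and a hypoxia core at -103, within the 122 bases between its GENCODE and RefSeq starts. The Cxcr4 window held a hypoxia core at -39, and the Ccr2 window held none of these letters. Over windows reaching 50 bases past the start, the T-box half-site occurred in 14.5% of 32851 promoters, the hypoxia core with A in 19.6%, that with G in 32.4% and either core in 43.8%. The 250-base windows differed in composition, with 37.2% G or C and 1 CpG for Ccr2, 48.0% and 3 CpG for Cxcr3, and 61.2% and 19 CpG for Cxcr4. A match is a description of letters and not a binding site.

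The deposited matrices held 54039 barcodes, and 48198 cells remained after filtering, between 4126 and 10181 per library. Depth differed by condition, with a median of 6626 to 8361 UMIs (unique molecular identifiers, 1 per captured transcript) per control cell and 1450 to 2351 per IR cell. Ribosomal protein genes took 16.5% to 22.8% of control UMIs and 27.2% to 42.7% of IR UMIs. The file headers name Cell Ranger 5.0.1 for the control and 6.0.1 for the IR libraries, so condition and software version cannot be told apart. A UMI of Cd3d, Cd3e or Cd3g was found in 97.4% to 99.1% of control and 90.4% to 95.9% of IR cells. Libraries of 1 condition shared more cell barcodes (97 to 118 per pair in control, 164 to 168 in IR) than libraries of different conditions (8 to 33). In the IR libraries 53, 49 and 49 kept barcodes (CD4, CD8 and DN) carried UMIs of 2 or more oligodendrocyte genes, a brain cell type that the sort should not hold, against 0 in control. Of these, 51, 49 and 49 had a barcode also found in another IR library. They held 0 Ccr2, 1 Cxcr3 and 4 Cxcr4 UMIs in all, and leaving them out changed no call for the 3 receptors.

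Levels are given as CPM, which are UMIs of a gene per 1000000 UMIs of the retained genes summed over the cells of a library, with exact 95% Poisson intervals. Calls needed a difference of 2-fold or more and a level of at least 10 CPM on the higher side. All 3 receptors exceeded 10 CPM in all 6 libraries.

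Ccr2 was at 185 CPM (181 to 189) in control CD4, 72.2 CPM (69.8 to 74.7) in control CD8 and 294 CPM (290.1 to 299) in control DN cells. In IR it was at 85.7 CPM (81.1 to 90.4) in CD4, 34.2 CPM (29.8 to 38.9) in CD8 and 119 CPM (109 to 129) in DN cells. The order from control DN through control CD4, IR DN, IR CD4 and control CD8 to IR CD8 spanned 8.62-fold, and no interval overlapped that of its neighbour. IR DN cells thus had more Ccr2 than control CD8 cells. Control DN cells led both in level and in UMIs per cell: a cell with Ccr2 held 3.11 Ccr2 UMIs there and 2.56 and 2.21 in control CD4 and CD8, at depths that differed.

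Cxcr3 was at 391 CPM (385 to 396), 349 CPM (343 to 354) and 398 CPM (393 to 403) in control CD4, CD8 and DN cells. It was at 144 CPM (138 to 149.8), 73.3 CPM (66.9 to 80.2) and 133 CPM (123 to 144) in the IR libraries in the same order. Every control library thus lay above every IR library, and the whole range was 5.43-fold. Control DN and control CD4 had overlapping intervals, as did IR CD4 and IR DN. IR CD8 stood lowest, 1.82-fold below IR DN. In cells without resting state genes, described with those genes, the ratio turned, but no interval was computed for it.

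Cxcr4 was at 38.0 CPM (36.3 to 39.7), 52.3 CPM (50.2 to 54.4) and 51.8 CPM (50.03 to 53.7) in control CD4, CD8 and DN cells. In IR it was at 194 CPM (187 to 201), 182 CPM (172 to 193) and 228 CPM (214 to 242). Every IR library lay above every control library, with a 3.48-fold gap between the lowest IR and the highest control library and a range of 6.00-fold. Intervals overlapped for IR CD4 and IR CD8, and for control CD8 and control DN. Cells with Cxcr4 mostly held a single UMI of it, in 69.8% to 82.7% of such cells over the 6 libraries.

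**Figure D1:**
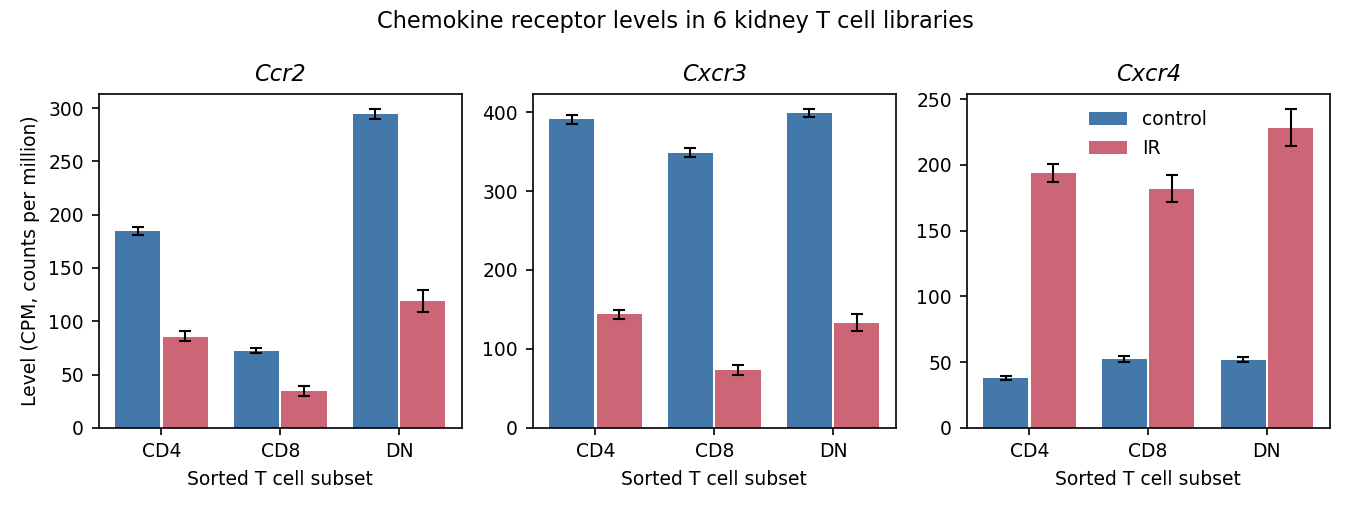
Level of Ccr2, Cxcr3 and Cxcr4 in CPM (vertical axis, from 0, a separate scale for each gene) in control (blue) and IR (red) CD4, CD8 and DN cells, 1 library per bar, with exact 95% Poisson intervals. Ccr2 and Cxcr3 bars are lower in IR than in control in all 3 subsets, and Cxcr4 bars are higher.

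The first comparison asked how each receptor differed between ischemic and normal kidney within a subset. The log2 ratio of IR over control for Ccr2 was -1.11 (95% interval -1.19 to -1.03) in CD4, -1.08 (-1.28 to -0.88) in CD8 and -1.31 (-1.44 to -1.19) in DN cells. For Cxcr3 it was -1.44 (-1.51 to -1.38), -2.25 (-2.38 to -2.12) and -1.58 (-1.70 to -1.46). For Cxcr4 it was 2.35 (2.27 to 2.43), 1.80 (1.70 to 1.90) and 2.14 (2.03 to 2.24). All 9 differences were past the 2-fold limit. The Ccr2 call in CD8 was lost when the top 5% of barcodes by UMIs were kept (-0.84) or no cell filter was applied (-0.89), and the Ccr2 calls in CD4 (-0.70) and CD8 (-0.70) were lost in cells without resting state genes, where Cxcr3 in CD8 was at -1.37.

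Large differences were common between these libraries, which sets the scale for the receptors. Of all genes at 10 CPM or more, 7.98% were called higher and 14.7% lower in IR CD4 cells (724 and 1334 of 9069 genes), 8.71% higher and 16.8% lower in IR CD8 cells (802 and 1542 of 9204), and 9.47% higher and 10.2% lower in IR DN cells (885 and 950 of 9341). With ribosomal, mitochondrial and Malat1 UMIs kept in the total, these numbers were 318 and 2544 in CD4, 363 and 3167 in CD8, and 604 and 1439 in DN, so that calls shifted towards lower in all 3. With ratios centred on genes of like intronic length, they were 779 and 464 in CD4, 1027 and 519 in CD8, and 981 and 391 in DN, so that higher calls then outnumbered lower ones. The median gene itself stood at -0.26, -0.36 and -0.23 on the log2 scale in CD4, CD8 and DN. Against this background the Cxcr3 ratio ranked at percentile 4.31 of all genes in CD4, 0.587 in CD8 and 1.48 in DN. Ccr2 ranked at percentile 11.4, 14.0 and 3.99. Cxcr4 ranked at percentile 98.3, 95.7 and 95.4.

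Ratios of IR over control moved with the intronic length of genes in these libraries. The 3 receptor genes are compact, with 4848, 1004 and 2287 intronic bases for Ccr2, Cxcr3 and Cxcr4. After centring each ratio on the median of genes of like intronic length, the log2 ratios in CD4, CD8 and DN were -1.36, -1.05 and -1.42 for Ccr2, -1.86, -2.42 and -1.86 for Cxcr3, and 2.03, 1.75 and 1.97 for Cxcr4. All 9 stayed past the 2-fold limit, beside 8.59%, 11.2% and 10.5% of all genes called higher and 5.12%, 5.64% and 4.19% called lower after centring.

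The second comparison was between subsets within a condition. Ccr2 was 4.08-fold higher in DN than in CD8 cells of control kidney (log2 ratio 2.03, 1.97 to 2.08) and 3.47-fold higher in IR (1.80, 1.57 to 2.03), where 3.54% and 7.23% of all genes were called higher. It was 2.56-fold lower in CD8 than in CD4 cells of control kidney (-1.36, -1.41 to -1.30) and 2.51-fold lower in IR (-1.33, -1.54 to -1.12), where 2.61% and 3.39% of genes were called lower. Ccr2 in DN exceeded that in CD4 by 1.59-fold in control and 1.38-fold in IR, under the limit. Cxcr3 in CD8 was 1.12-fold below CD4 in control and 1.96-fold below in IR, just under the limit. With ribosomal, mitochondrial and Malat1 UMIs kept in the total, Cxcr3 in IR CD8 passed it against both CD4 (log2 ratio -1.14) and DN (1.20 for DN over CD8). In thinned cells without a UMI of Ccr7, Klf2, Il7r or S1pr1, these were -0.27 and -0.37, the latter in the opposite direction. No interval was computed for either value. Cxcr4 stayed within 1.38-fold between any 2 subsets of a condition.

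Because IR cells were shallower, the share of cells with a UMI was taken after thinning each cell to 1000 UMIs at random. At that depth Ccr2 was found in 12.4% (11.7 to 13.1), 4.52% (4.09 to 4.97) and 18.8% (18.0 to 19.6) of control CD4, CD8 and DN cells, and in 4.79% (4.38 to 5.23), 1.38% (1.11 to 1.71) and 7.72% (6.88 to 8.63) of IR cells (exact Clopper-Pearson intervals). Cxcr3 was found in 26.2%, 23.4% and 27.5% of control and in 8.18%, 3.90% and 8.29% of IR cells. Cxcr4 was found in 3.15%, 3.84% and 4.51% of control and in 11.3%, 9.05% and 13.2% of IR cells. Ribosomal, mitochondrial and Malat1 UMIs count towards the 1000, so the depth in the other genes still differed between libraries. At 500 UMIs of the retained genes Cxcr4 was found in 2.07%, 2.94% and 2.63% of control and 9.32%, 8.38% and 10.3% of IR cells. Both sets of thinned shares followed the CPM in direction for every receptor and subset. The cells shallower than 1000 UMIs and left out numbered 102, 566 and 34 in control and 148, 206 and 421 in IR.

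At the full depth the shares were 39.4%, 16.0% and 64.5% in control against 10.2%, 2.79% and 10.8% in IR for Ccr2, and 72.9%, 62.5% and 86.1% against 17.1%, 6.61% and 12.7% for Cxcr3. For Cxcr4 they were 16.3%, 19.98% and 24.2% in control against 22.4%, 15.3% and 19.0% in IR. Unthinned, the Cxcr4 share was therefore lower in IR than in control for CD8 and DN cells, opposite to its CPM and to its share at 1000 UMIs, and no order is read from it.

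**Figure D2:**
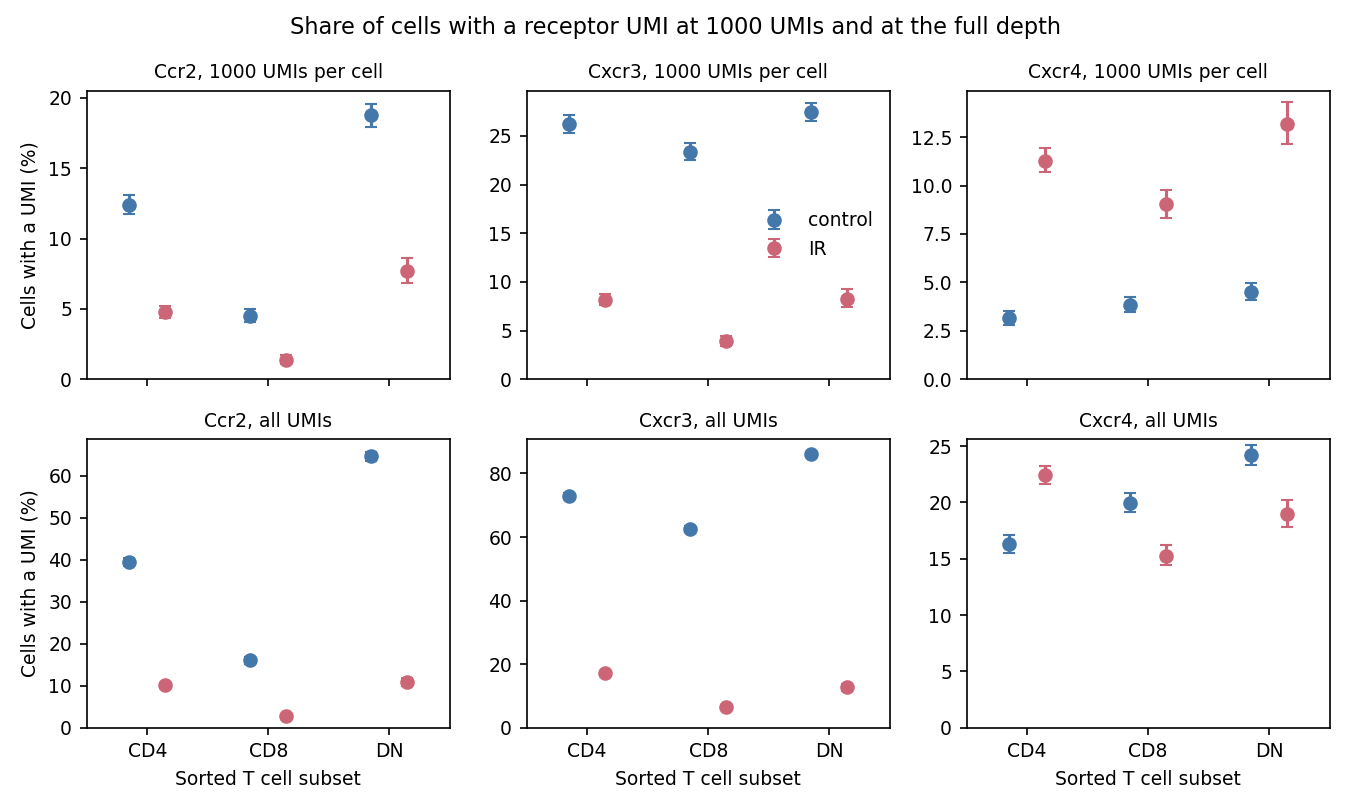
Share of cells with at least 1 UMI of each receptor (percent, vertical axes from 0) in control (blue) and IR (red) libraries, after thinning every cell to 1000 UMIs (top) and at the full depth (bottom), with exact 95% Clopper-Pearson intervals. At 1000 UMIs the IR points lie above the control points for Cxcr4 in all 3 subsets, whereas at full depth they lie below in CD8 and DN.

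Genes that the sort removes were counted as a check of the sort. At 1000 UMIs, Cd4 was found in 0.0114% to 0.0322% of CD8 and DN cells, against 16.0% and 8.56% of control and IR CD4 cells. Cd8b1 was found in 0.0810% to 0.409% of CD4 and DN cells, against 60.7% and 42.1% of control and IR CD8 cells. The lowest receptor share was 1.38%, for Ccr2 in IR CD8 cells. Because the sort removed cells with Cd4 or Cd8b1 before loading, their shares cannot gauge stray RNA of receptors that the loaded cells express. In the 151 oligodendrocyte barcodes of the IR libraries at full depth (median 1661 to 1817 UMIs), Ccr2 was found in 0, which allows a share of up to 1.99% with 3 counts as the limit and up to 2.41% by the exact interval, Cxcr3 in 1 (0.662%, 0.0168 to 3.63) and Cxcr4 in 4 (2.65%, 0.726 to 6.64).

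Monocytes also use Ccr2, and myeloid genes were therefore set beside it. The 10 monocyte or macrophage genes summed to 23.0, 17.6 and 9.10 CPM in the control libraries (CD4, CD8, DN) and 58.1, 26.5 and 18.7 CPM in IR, with all of them detected in 5 libraries and 1 at 0 in IR DN. Their sum was higher in IR and lowest in control DN. The 6 dendritic or antigen-presenting cell genes summed to 53.7, 35.995 and 16.3 CPM in control and 27.9, 9.45 and 7.57 CPM in IR, with 2 or fewer at 0 per library. Their sum was lower in IR. The 6 B cell genes summed to 182, 181 and 173 CPM in control and 161, 139 and 113 CPM in IR, with 2 or fewer at 0 per library, and were also lower in IR. The 5 neutrophil genes, of which 4, 4 and 3 were at 0 in control and 1, 3 and 3 in IR, summed to at most 0.115 CPM in control and to 20.3, 3.96 and 0.890 CPM in IR. The 4 erythroid globin genes were all detected and summed to 1.16 to 1.28 CPM in control and 20.03 to 27.5 CPM in IR. In the 79 barcodes removed as other lineages, Ccr2 was found in 2 of 18 in control and 3 of 61 in IR. The part of these cells in the receptor differences was not tested.

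Receptors were then examined within single cells. At 1000 UMIs, at least 1 of the 3 was found in 36.9%, 29.4% and 43.4% of control cells (CD4, CD8, DN) and 22.3%, 13.7% and 26.0% of IR cells. In control the commonest pattern was Cxcr3 alone, in 21.8%, 21.1% and 20.95% of cells. In IR it was Cxcr4 alone, in 10.0%, 8.58% and 10.6%. Ccr2 with Cxcr3 but not Cxcr4 was found in 3.59%, 1.44% and 5.16% of control cells and in 0.608%, 0.129% and 0.513% of IR cells. All 3 receptors together were found in 0.0161% to 0.248% of cells, 1 to 22 cells per library.

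**Figure D3:**
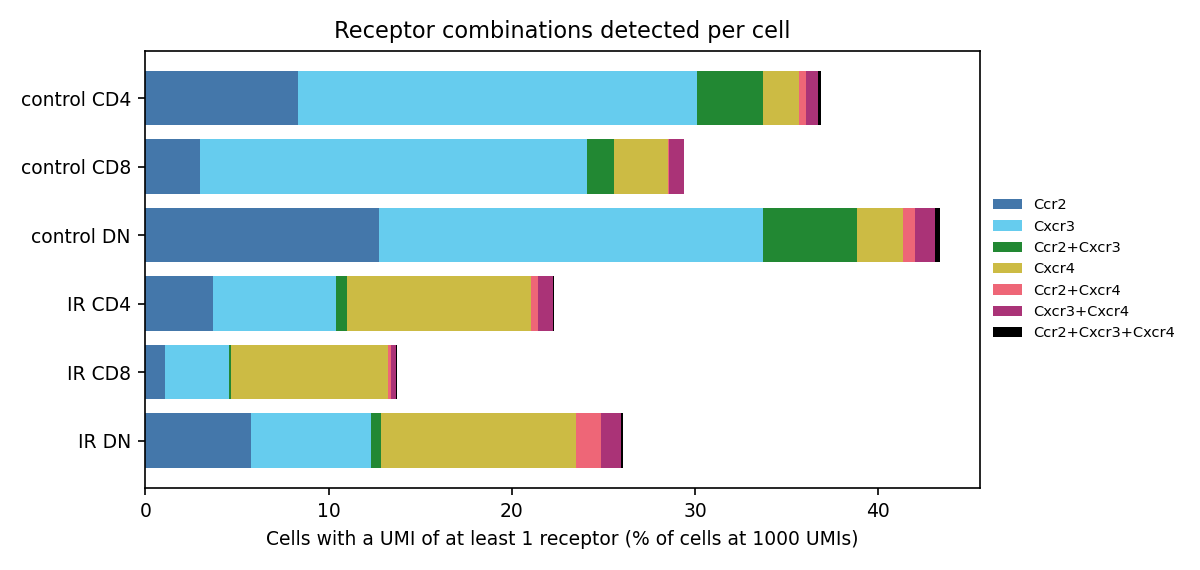
Share of cells (percent of cells thinned to 1000 UMIs, horizontal axis from 0) with each combination of Ccr2, Cxcr3 and Cxcr4 UMIs in the 6 libraries, stacked and leaving out cells with none. Light blue (Cxcr3 alone) is widest in the 3 control bars and ochre (Cxcr4 alone) in the 3 IR bars.

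Cxcr3 was found more often in cells with Ccr2 than in the others, in CD4 and CD8 libraries. Among control CD4 cells, Cxcr3 was found in 30.0% (27.3 to 32.7) of cells with a Ccr2 UMI and in 25.7% (24.7 to 26.6) of the others. In control CD8 the shares were 32.4% (27.8 to 37.3) and 23.0% (22.1 to 23.9). In IR CD4 they were 14.1% (11.1 to 17.6) and 7.88% (7.35 to 8.44), and in IR CD8 10.5% (4.90 to 18.9, 9 of 86 cells) and 3.804% (3.34 to 4.31). At 500 UMIs per cell the log2 ratio of the shares was -0.029 in control CD4, against 0.22 at 1000. In control CD8 and IR CD8 it was 0.40 and 1.52, against 0.50 and 1.46 at 1000, and the intervals overlapped at the lower depth.

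DN cells differed in that the intervals overlapped in both conditions. Cxcr3 was found in 28.8% (26.6 to 31.0) of control DN cells with Ccr2 and in 27.2% (26.1 to 28.2) of the others, and in 7.69% (4.88 to 11.4) and 8.34% (7.43 to 9.31) in IR. The difference between subsets was not tested. At 1000 UMIs Cxcr4 was found at like shares whether or not Cxcr3 was detected, with overlapping intervals in all 6 libraries. Without thinning the intervals were apart in control CD4, control CD8 and IR CD4 (log2 ratios 0.31, 0.57 and -0.20), where cell depth is unequal. With Ccr2 at 1000 UMIs the intervals were apart in IR DN, at 18.9% (14.5 to 23.9) of cells with Ccr2 and 12.7% (11.6 to 13.9) of the others. That log2 ratio was 0.57 at 1000 UMIs, 0.69 at 500 UMIs and 0.52 at 500 UMIs of the retained genes, with overlapping intervals at both lower depths. Intervals overlapped at 1000 UMIs in the other libraries, with log2 ratios of 0.64 in IR CD8 and -1.15 in control CD8, and the difference between libraries was not tested.

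Genes of cell state separated the receptors further. Ccr7 encodes the lymph node homing receptor of naive and central memory T cells. Ccr2 was found in 0.0609% to 1.39% of cells with a Ccr7 UMI and in 1.86% to 12.7% of the others, over the 4 CD4 and CD8 libraries. Cxcr3 was found in 0.541% to 9.70% of cells with Ccr7 and in 5.01% to 26.6% of the others. Both were lower with Ccr7 in 4 of 4 libraries, with intervals apart. Cxcr4 did not differ beyond its intervals with Ccr7 in any of the 4 libraries at 1000 UMIs. At 500 UMIs of the retained genes it was higher with Ccr7 in IR CD8, at 10.5% against 7.65% (log2 ratio 0.46), and overlapped in the other 3.

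Klf2, a transcription factor of resting recirculating T cells, and Il7r, the interleukin-7 receptor, gave a like pattern for Ccr2 and Cxcr3. Ccr2 was lower in Klf2-positive and in Il7r-positive cells of 5 of 6 libraries each, and Cxcr3 of 4 of 6 each. At 500 UMIs of the retained genes Ccr2 was lower in 4 of 6 with either gene, the intervals of control CD8 overlapping with Klf2 and those of control DN with Il7r, and Cxcr3 in 4 of 6 with either. The largest Klf2 contrast for Cxcr3 was in IR CD8, with a log2 ratio of the shares of -2.04. Cxcr4 was higher in Klf2-positive cells of both DN libraries and overlapped in the other 4. At 500 UMIs of the retained genes it overlapped in both DN libraries (0.51 and 0.21) and was higher in IR CD8 (0.76). With Il7r, Cxcr4 was higher in IR CD4 and IR CD8 at both depths (0.25 and 0.39 at 1000 UMIs).

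Cxcr6, a chemokine receptor of tissue-resident T cells, went the other way. Ccr2 was higher in Cxcr6-positive cells of all 6 libraries, from 21.1% against 15.8% in control DN to 3.97% against 1.18% in IR CD8. Cxcr3 was higher in 5 of 6, from 29.9% against 24.4% in control DN to 13.7% against 3.13% in IR CD8, and overlapped in IR DN. Cxcr4 overlapped in all 6, with log2 ratios from -0.24 to 0.08. Cd69, an early activation and residency gene, set none of the 3 receptors apart in any library. After thinning to 500 UMIs of the retained genes, Ccr2 was higher with Cxcr6 in 4 of 6 libraries, and the intervals overlapped in IR CD8 (1.496% against 1.16%, a log2 ratio of 0.36 where it was 1.75 at 1000 UMIs) and in IR DN (0.48). Cxcr3 was then higher with Cxcr6 in 6 of 6, IR DN included (8.92% against 5.69%). Ccr2 was lower with Ccr7 in 4 of 4.

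Ccl5, a chemokine gene of effector and memory T cells, went with Ccr2 in different directions between libraries. In CD8 cells Ccr2 and Cxcr3 were both higher with Ccl5. In IR CD8, Ccr2 was found in 2.94% (2.35 to 3.63) of Ccl5-positive cells and in 0.0886% (0.0183 to 0.259) of the others, and Cxcr3 in 8.03% (7.06 to 9.10) and 0.443% (0.248 to 0.730). In control CD8 the shares were 5.31% and 1.14% for Ccr2 (3.79% and 1.73% at 500 UMIs of the retained genes) and 26.7% and 9.25% for Cxcr3. In DN cells the Ccr2 shares ran the opposite way, at 12.4% with Ccl5 and 22.7% without in control and 6.13% and 9.64% in IR, the latter with overlapping intervals at 500 UMIs of the retained genes. In CD4 cells Ccr2 was higher with Ccl5 in IR (6.65% and 3.81%). It was lower in control (10.9% and 13.2%), with overlapping intervals at 500 UMIs of the retained genes (7.37% and 8.36%). Cxcr4 was lower with Ccl5 in both CD4 and both DN libraries and overlapped in CD8. At 500 UMIs of the retained genes it was lower in IR CD4 (-0.37), and the intervals overlapped in control CD4 (-0.46), control DN (-0.57) and IR DN (-0.08).

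**Figure D4:**
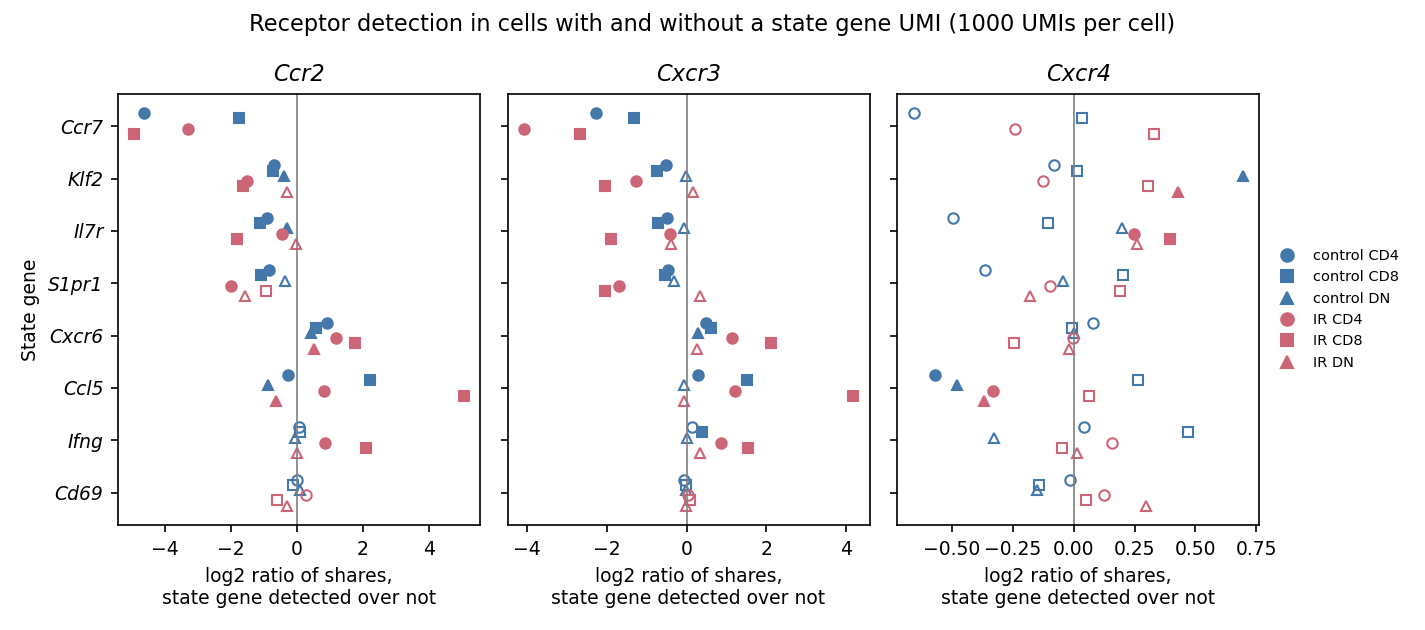
Log2 ratio of the share of cells with a receptor UMI, cells with a state gene UMI over cells without (horizontal axes, a separate scale for each receptor), in control (blue) and IR (red) CD4 (circles), CD8 (squares) and DN (triangles) libraries at 1000 UMIs per cell. Filled points have intervals that do not overlap. Ccr2 and Cxcr3 lie left of 0 for Ccr7 and right of 0 for Cxcr6, while Cxcr4 points are mostly open.

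The share of cells with a Ccr7 UMI moved with condition. It was 2.17%, 4.95% and 0.113% in control (CD4, CD8, DN) and 11.1%, 26.4% and 0.351% in IR. Among cells without one, Ccr2 was found in 12.7%, 4.68% and 18.8% of control and 5.32%, 1.86% and 7.72% of IR cells. Cxcr3 was found in 26.6%, 24.1% and 27.5% of control and 9.13%, 5.01% and 8.32% of IR cells. Cxcr4 was found in 3.17%, 3.84% and 4.50% of control and 11.5%, 8.47% and 13.2% of IR cells. The direction of every receptor was thus the same in these cells. On the CPM scale their Ccr2 log2 ratio was -1.02 in CD4 and -1.05 in CD8, barely past the 2-fold limit. With cells holding a UMI of Ccr7, Klf2, Il7r or S1pr1 left out, it was -0.70 in CD4 and -0.70 in CD8, and both calls were lost. Cxcr3 and Cxcr4 kept their calls in all 3 subsets. The Cxcr3 ratio was then -1.01, -1.37 and -1.65 in CD4, CD8 and DN, so that its difference in CD8 was 2.58-fold. The Cxcr4 ratio was 2.10, 1.23 and 1.69. Cxcr3 in these cells was 1.29-fold lower in IR DN than in IR CD8, the reverse of the order over all cells. No interval was computed for this ratio. Over all thinned cells, Cxcr3 was found in only 307 IR DN and 242 IR CD8 cells. Both sets of cells were chosen after the data were seen. They leave out unequal parts of control and IR. Klf2 alone was found in 1962 of 9153 control and 5013 of 10033 IR CD4 cells. In CD8 it was found in 2716 of 8742 control and 4235 of 6211 IR cells.

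Other chemokine receptor genes were set beside the 3. Of 20, those measured at 10 CPM or more numbered 9 in CD4, 7 in CD8 and 5 in DN cells for the IR and control comparison. In CD4, 3 were higher and 3 lower, in CD8 2 and 2, and in DN 1 and 3. These counts stand against 7.98%, 8.71% and 9.47% of all genes called higher and 14.7%, 16.8% and 10.2% called lower in CD4, CD8 and DN. The median log2 ratio of the measured genes was -0.50, 0.43 and -1.18, against the -0.26, -0.36 and -0.23 of all genes.

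Cxcr6 and Ccr4 were lower in IR. Cxcr6 went from 803, 702 and 1167 CPM in control CD4, CD8 and DN to 281, 149 and 467 CPM in IR. Ccr4, a receptor of helper and regulatory T cells, had 34.2 CPM in control and 11.3 CPM in IR CD4 cells, 25.8 and 11.35 CPM in DN cells, and 3.56 and 0.762 CPM in CD8 cells.

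Ccr7 and Cxcr5 were called higher in CD4 and CD8 cells. Ccr7 rose to 245 CPM from 32.8 CPM in CD4 cells and to 693 CPM from 85.5 CPM in CD8 cells, and in DN cells stood at 0.938 (control) and 8.23 CPM (IR). Cxcr5, the receptor of B cell follicles, had 3.996 CPM in control CD4 and 15.0 CPM in IR CD4 cells, and 8.67 and 26.4 CPM in CD8, and in DN cells was under the level for a call at 3.17 and 9.57 CPM. Ccrl2, an atypical receptor that does not signal like the others, increased from 16.3 to 85.3 CPM in CD4 cells and, in DN cells, from 21.8 to 174 CPM, with 9.59 and 13.0 CPM in CD8. Ccr8 in CD4 (12.2 and 8.67 CPM), Ccr9 in all subsets (24.7 to 43.6 CPM) and Cx3cr1 in CD4 and CD8 (7.77 to 30.3 CPM) were under the 2-fold limit. With the intronic centring Cx3cr1 passed it in both subsets.

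**Figure D5:**
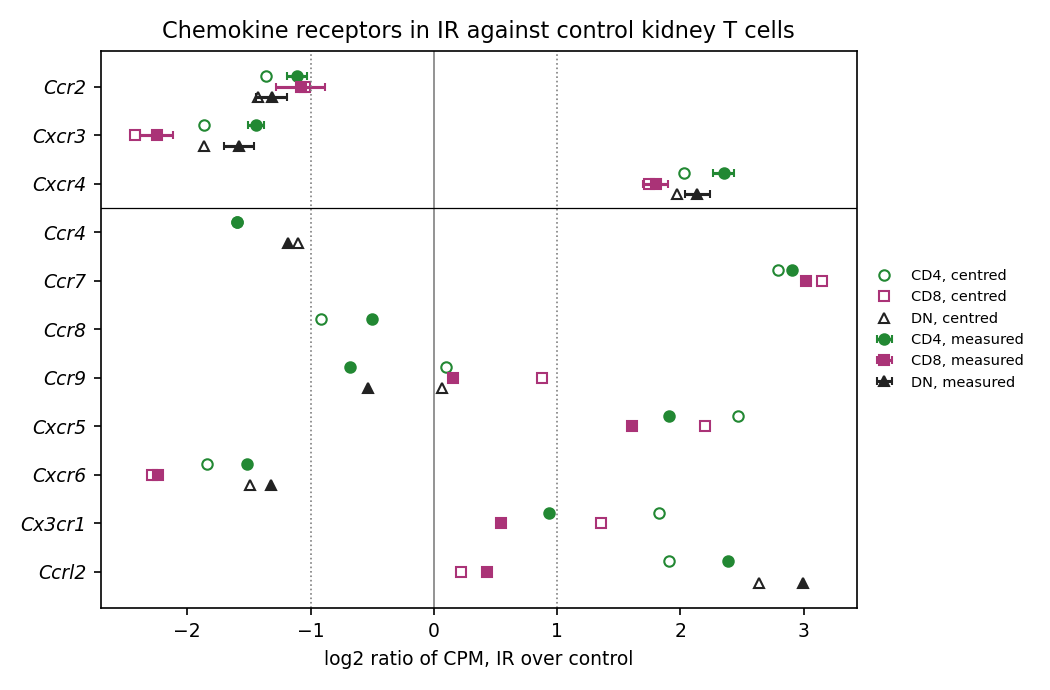
Log2 ratio of CPM, IR over control, for Ccr2, Cxcr3 and Cxcr4 (top, with 95% intervals) and for 8 other chemokine receptor genes (below), in CD4 (green circles), CD8 (purple squares) and DN (black triangles) cells. Filled symbols are as measured and open symbols after centring by intronic length, and dotted lines mark 2-fold. Cxcr4, Ccr7 and Cxcr5 lie right of 1 where measured, and Ccr2, Cxcr3 and Cxcr6 left of -1.

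Of 7 ligand genes, Cxcl10 and Mif reached 10 CPM. Mif, whose product also binds CXCR4, was at 197, 310.3 and 205 CPM in control CD4, CD8 and DN and at 431, 666 and 377 CPM in IR, called higher in CD4 and CD8 (as were 7.98% and 8.71% of all genes) but under the limit after intronic centring. Cxcl10 lay between 31.4 and 55.4 CPM in all libraries. The other 5, Ccl2, Ccl7, Ccl12, Cxcl9 and Cxcl12, stayed under 10 CPM.

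Downstream signalling genes mostly stayed under the limit. Of 17 measured, none was called higher, and 4 were called lower in CD4 and in CD8 and 1 in DN, where 14.7%, 16.8% and 10.2% of all genes were called lower. Elmo1, an adaptor in the migration pathway, was lower in all 3, from 1019.8, 736 and 903 CPM to 375, 283 and 405 CPM. The others were Gng2, Grk5 and Ptk2b in CD4 and CD8. After intronic centring none of the signalling genes was called, and the median log2 ratio before it was -0.37, -0.42 and -0.22, near that of all genes. Of the RGS inhibitors, Rgs1, with 757 CPM in control DN against 1587 CPM in IR DN, was the 1 of 7 called higher there (9.47% of all genes were), a call lost with TMM scaling and with intronic centring. Rgs10 was called higher in CD4 and CD8 (88.7 to 194 CPM and 114 to 262 CPM, log2 ratios 1.13 and 1.20). Both calls are lost with ribosomal, mitochondrial and Malat1 UMIs kept in the total, a shift of -0.35 and -0.42. Rgs3 was called lower in CD4 and CD8 (149 to 62.6 CPM and 136 to 51.2 CPM), but not after centring. Rgs14 was called lower in CD8 (48.7 to 23.0 CPM), also not after centring.

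Transcription factors known to act on these receptors also differed between conditions. Tbx21, which encodes T-bet, went from 298, 231 and 369.9 CPM in control CD4, CD8 and DN to 90.4, 65.1 and 145 CPM in IR. It stayed called after intronic centring. In thinned cells the Cxcr3 share was higher with Tbx21 in control CD4, control CD8 and IR CD4 (log2 ratios 0.22, 0.22 and 0.66). Intervals overlapped in IR CD8, control DN and IR DN (0.33, -0.05 and 0.05). The part of Tbx21 in the Cxcr3 difference was not tested. Klf2 went from 426, 742 and 278 CPM to 2068, 3621 and 808 CPM and was called higher in all 3, as were 7.98%, 8.71% and 9.47% of all genes. Of all genes 14.7%, 16.8% and 10.2% were called lower. Stat4 was called lower in all 3, as was Nr3c1, which encodes the glucocorticoid receptor, from 1174, 557 and 1278 CPM to 348, 126 and 511 CPM. Eomes was called lower in CD8. Hif1a lay between 138 and 320.4 CPM and was not called in any subset. Of the 7, 8 and 7 factors measured in CD4, CD8 and DN, 3, 5 and 3 were called lower, and 1, 3 and 1 after centring, when 5.12%, 5.64% and 4.19% of all genes were.

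Genes induced by glucocorticoids and by hypoxia were also set beside the receptors. Of 6 glucocorticoid-induced genes, 4 were called higher in all 3 subsets, with and without centring, where 7.98%, 8.71% and 9.47% of all genes were called higher. Tsc22d3, which encodes GILZ, went from 152, 271 and 132 CPM to 759.7, 1099 and 713 CPM. Dusp1, Klf9 and Sgk1 were the others. Keeping ribosomal, mitochondrial and Malat1 UMIs in the total shifts ratios by -0.35 in CD4 and -0.42 in CD8. That ends the CD8 calls of Dusp1 (log2 ratio 1.25), Klf9 (1.14) and Sgk1 (1.29) and the CD4 call of Klf9 (1.33). Per1 (log2 ratios 0.39, 0.43 and 0.88 in CD4, CD8 and DN) and Fkbp5 (-0.21, -0.21 and -0.12, the opposite direction) stayed under the limit. Of 8 targets of hypoxia-inducible factor, 5 were measured in each subset, and Slc2a1 and Pfkfb3 were called lower in all 3, beside 14.7%, 16.8% and 10.2% of all genes. Slc2a1, the glucose transporter GLUT1, went from 99.2, 98.0 and 95.1 CPM to 31.9, 23.0 and 41.8 CPM. After centring Pfkfb3 was called in no subset and Slc2a1 in CD4 and CD8 alone. Ndrg1 was called higher in CD8 and DN, at 16.02 CPM or less. How these lists bear on the receptors was not tested.

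Across the 6 libraries the genes whose levels were most like each receptor were named by Pearson's r of log2(CPM + 1), among 5028 genes at 50 CPM or more in a library. For Ccr2 they were Gm34455 (r = 0.999), Myo1e, Ppp2r1a, Sh3pxd2a and Il12rb2 (0.987). Il12rb2, a chain of the interleukin-12 receptor, was at 317, 105 and 468 CPM in control CD4, CD8 and DN and at 91.1, 28.7 and 193 CPM in IR. For Cxcr3 they were Taf1, 0610030E20Rik, Was, Erlec1 and Atg2a (0.998 to 0.997), and for Cxcr4 Rnf220, Cst3, Gtf2h5, Polr2l and Cirbp (0.999 to 0.996). Cirbp, the cold-inducible RNA-binding protein, was at 88.5, 100.1 and 104 CPM in the control libraries and 326, 291 and 333 CPM in IR. The 6 points share condition, depth and software version, and r over them is a description.

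Across single cells the likeness was taken within libraries, as the log2 ratio of CPM in cells with a receptor UMI over cells without, at its minimum over the 6 libraries. All UMIs were used, without thinning. Cells with a receptor UMI were deeper, with a median of 7113 against 4685 UMIs for Cxcr3 in control CD8. The part of depth in these ratios was not tested. For Ccr2 the leading genes were F2r (0.43 to 0.95), Cxcr6 (0.40 to 1.15), Gna15, Nabp1 and Rora. The genes most unlike it were Klf2 (-1.78 to -0.62), Sidt1, Tagap, Tcf7 and Hmgn1. Tcf7 encodes TCF-1, a factor of naive and memory T cells. For Cxcr3 the most like were Rcbtb2 (0.41 to 0.89), S100a6 (0.37 to 1.76), Fgl2, Gimap7 and Crip1, and the most unlike Alkbh1, Tagap, Nop58, Sik1 and Kif1b. For Cxcr4 the most like were Vps37b (0.30 to 0.39), Malt1, Dusp5, Sik1 and Ssh2, and the most unlike S100a4 (-1.24 to -0.21), Ccl5, Gbp4, Etfb and Ssr2. Sik1 was thus among the most like Cxcr4 and the most unlike Cxcr3, and Tagap was unlike both Ccr2 and Cxcr3.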

How the data were processed

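Kidney αβ T cells were profiled as 6 droplet libraries (10x Genomics 3′ chemistry). The deposited matrices hold raw UMI counts, not normalized, that the authors obtained with Cell Ranger on mm10. The file headers name version 5.0.1 for the control and 6.0.1 for the IR libraries, and the labels name 6.0.1. The study's methods name default settings without spelling out how intronic reads were treated.

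Barcodes with at least 500 features and at most 20% mitochondrial UMIs were kept, and the top 5% by UMIs in each library were dropped to limit doublets, as in the study. No doublet caller was run. Of 48277 barcodes left, 79 with no Cd3 UMI and UMIs of 2 or more genes of another lineage were removed. Mitochondrial and ribosomal protein genes and Malat1 (104 features) were left out of the totals, and 21054 features found in at least 5 cells were retained. Counts were summed per library (4493444 to 60798770 UMIs) and expressed as CPM. In ratios, genes at 0 took the value of 3 counts (0.0493 to 0.668 CPM).

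Groups came from the sample titles. With 1 library per group, no p-value is given. Ratio intervals are exact conditional binomial intervals. Centring used 20 bins of intronic length from GENCODE M21, in which 99.8% of features were found. State genes needed 30 positive cells in a library. The calling rule and intervals were tested on simulated data. Named genes were the 3 receptors, other receptors and ligands reaching 10 CPM, the members of the other lists with the largest ratio in each direction, and the 5 genes most like or unlike each receptor. Some further list members were named after their values were seen. The members and lists were chosen with earlier results of these data known. Alternatives included TMM scaling (edgeR 4.0.16, R 4.3.3), other filters and other depths. Python 3.11.15 with numpy 2.4.6, scipy 1.17.1 and pandas 2.3.3 was used. Some genes of the lists, and results that need them, are not reported here.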

Additional observations from a re-analysis of the deposited data

Results flagged for a closer look

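The share of cells with Ccr2 moved in opposite directions with Ccl5 between libraries, which drew attention to it. The log2 ratio of the Ccr2 share in Ccl5-positive over other cells was 2.22 in control CD8, 5.05 in IR CD8 (95% interval 3.45 to 7.36, resting on 3 Ccr2 cells among those without Ccl5) and 0.81 in IR CD4. It was -0.27 in control CD4, -0.88 in control DN and -0.65 in IR DN. The difference between libraries was not tested. After thinning to 500 retained UMIs the signs were kept, but control CD8 fell to 1.13 and the intervals of control CD4 and IR DN overlapped (-0.18 and -0.48).

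The IR libraries held 53 (CD4), 49 (CD8) and 49 (DN) barcodes with UMIs of at least 2 of 8 oligodendrocyte genes, a signal outside the receptor comparisons that was at 0 in the control libraries. Of the kept IR barcodes they made up 0.521%, 0.764% and 1.19%, and 96.2% to 100% of them carried a barcode found in another IR library, against 0.711% to 1.64% of the rest. These marker genes were chosen after the data were seen.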

How the results depend on the processing

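Of 405 alternative values for the level ratios of the 3 receptors (27 ratios under 15 alternatives), 399 kept their side of the 2-fold limit, of which 386 also kept their sign. The 13 with a turned sign belong to 7 ratios between subsets, none of them called, and the most distant was Cxcr3 for DN over CD8 in IR, from 0.86 to -0.37 without cells holding resting state genes. Without those cells Cxcr3, IR over control in CD8, was -1.37. No intervals were computed for the alternative level ratios. Ccr2, IR over control, dropped under the limit in CD8 with the top 5% of barcodes kept (-0.836) or no cell filters (-0.893), and in CD4 (-0.702) and CD8 (-0.699) without cells holding Ccr7, Klf2, Il7r or S1pr1 UMIs. With ribosomal, mitochondrial and Malat1 UMIs kept in the total, Cxcr3 in IR passed it for DN over CD8 (1.20) and CD8 over CD4 (-1.14), and the median of all genes shifted by -0.35, -0.42 and -0.17 in CD4, CD8 and DN.

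For shares, Cxcr4 alone changed: the log2 ratio of IR over control was 0.46, -0.39 and -0.35 in CD4, CD8 and DN without thinning, and 0.63, -0.64 and -0.78 for at least 2 UMIs. By construction these compare cells of unequal depth. For co-detection, the Ccr2 and Cxcr3 ratio was -0.029 (control CD4), 0.40 (control CD8) and 1.52 (IR CD8) at 500 UMIs, 0.20 (control CD4) at 500 retained UMIs and 0.16 (control DN) without thinning. The Ccr2 and Cxcr4 ratio was 0.69 and 0.52 (IR DN) at 500 UMIs and 500 retained UMIs, and 0.35 (control CD4) and 0.41 (control CD8) without thinning. The Cxcr3 and Cxcr4 ratio without thinning was 0.31, 0.57 and -0.20 in control CD4, control CD8 and IR CD4. The cause was not tested.

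With no minimum CPM the other chemokine receptors counted 6 higher and 5 lower in CD4 and in CD8, and 5 and 5 in DN. Genes called higher and lower were then 5572 and 2629 in CD4, 6939 and 2674 in CD8, and 7629 and 1715 in DN. At 50 CPM they were 382 and 771, 320 and 839, and 341 and 530. After intronic centring 779 and 464, 1027 and 519, and 981 and 391 were higher and lower, which turned the balance. Of 138 cell state contrasts at 500 retained UMIs, 122 kept their intervals apart or overlapping, 13 lost and 3 gained separation. Values among the 122 could still move, as for Cxcr4 with Ccr7 in control CD4 (log2 ratio -0.66 to 0.65). That depth was an alternative chosen after seeing the data, as were leaving out oligodendrocyte barcodes and cells with Ccr7 or other resting state genes. No paired analysis was run, since pairing by subset would use different cell types as replicates of a condition, and no result comes from a test. Because each group has 1 library, no replicate could be left out. Depth limits the IR shares, at a median of 1450 to 2351 UMIs per cell.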
